A study of Mus musculus with 5 samples.

Results

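Macrophage transcripts were examined in whole hearts of 5 wild-type mouse embryos at E12.5, through 10 genes that are widely used to recognise these cells: Csf1r, Cd68, C1qa, C1qb, C1qc, Cx3cr1, Mrc1, Pf4, Tyrobp and Fcer1g. The genes were fixed by name, and every probe set with exactly 1 of these symbols in the platform annotation was taken, which gave 15 probe sets of 22690 on the array and 10 genes of 12393. The embryos came from a 129P2/OlaHsd stock crossed back to C57BL/6 for 2 generations, were wild type per the labels, which name no treatment, and RNA of each heart was measured on its own Affymetrix 430A array. The labels number the hearts 6 to 10, and those numbers are used here. There was 1 group and no second condition, so the questions are which of these genes gave signal and how alike the hearts were. The labels call them individual isolates and do not say whether they shared a litter, so p-values measure only the spread between these samples.

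Macrophages of the embryonic heart descend at this stage largely from precursors of the yolk sac, with a later contribution from the fetal liver. They clear dying cells, take part in valve and vessel remodelling, and are maintained by signals through the colony-stimulating factor 1 receptor. Their typical transcripts encode surface receptors, the chains of complement C1q, lysosomal proteins and small membrane adaptors that pass receptor signals to the kinase Syk through a motif called ITAM. Several of the 10 genes are also known from other cells: Pf4 from megakaryocytes, Mrc1 from sinusoidal and lymphatic endothelium, and Fcer1g from mast cells and platelets.

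Levels are log2 of the intensity plus 16, and the background of an array is the 95th percentile of 69 genes of unrelated tissues such as lens, retina and pancreas. From heart 6 to heart 10 this background lay at 5.12, 5.44, 5.42, 5.33 and 5.26. A gene was counted as detected where it exceeded background in all 5 hearts, and a gene with several probe sets was represented by the one with the highest mean. The tissue label held against heart muscle markers, of which 13 of 14 were detected and the remaining 1, Nkx2-5, exceeded background in 4 hearts. In whole hearts, fewer cells of a type and less RNA per cell cannot be told apart, and levels of different genes were not compared because probe sets respond differently.

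Of the 10 macrophage genes, 7 were detected in all 5 hearts, 1 (C1qc) in 3 hearts, and 2 (C1qa and Cx3cr1) in none. Over all genes, 51.8% were detected in all hearts and 32.8% exceeded background in none. Counted singly, 10 of the 15 probe sets exceeded background in all hearts, against 46.1% of all probe sets. Of the 7 genes fixed as macrophage markers, 4 were detected (Csf1r, Cd68, Lyz2 and Mertk), Adgre1 exceeded background in 2 hearts, and Spi1 and Itgam in none, so the label rests on part of its markers.

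**Figure D1:**
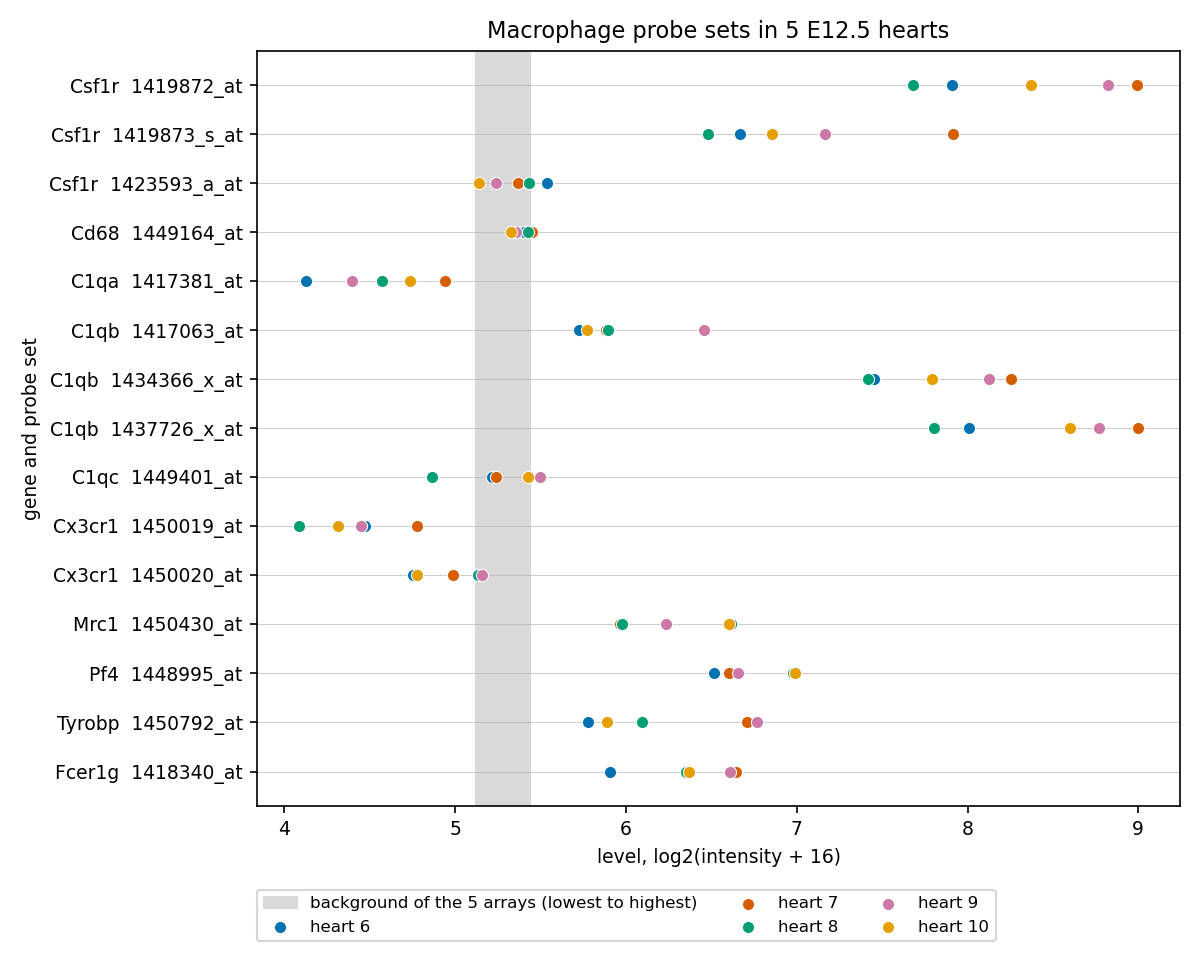
Level of each of the 15 macrophage probe sets, log2(intensity + 16), on the horizontal axis, with 1 point for each of the 5 hearts and the range of array backgrounds in grey. Probe sets of Csf1r and C1qb reach 8.99 and 9.00 in heart 7, another Csf1r probe set and Cd68 lie at the background, and C1qa and Cx3cr1 lie below it.

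Csf1r encodes the receptor tyrosine kinase for colony-stimulating factor 1 and interleukin 34, on which most tissue macrophages depend. By probe set 1419872_at its levels in hearts 6 to 10 were 7.91, 8.99, 7.68, 8.82 and 8.37 (mean 8.35 ± 0.57, SD, n = 5). Hearts 7 and 9 were high, hearts 6 and 8 were low, and every heart lay at least 2.26 above its background. The highest and lowest hearts differed by 1.31 log2 units, or 2.49-fold on this scale, and the deposited intensities ran from 189.0 to 493.5, a ratio of 2.61.

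Csf1r has 2 further probe sets. Probe set 1419873_s_at had 6.67, 7.91, 6.48, 7.16 and 6.86 in hearts 6 to 10, with the hearts in the same order as above. Probe set 1423593_a_at had 5.54, 5.37, 5.43, 5.24 and 5.14, exceeded background in 2 hearts, and was lowest in heart 10. The order of the hearts was thus shared by 2 of the 3 probe sets and not by the one near background.

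The ligands of Csf1r gave little signal. Csf1 had 5.60, 5.26, 5.73, 5.59 and 5.10 in hearts 6 to 10 and exceeded background in 3 of them. Il34 lay between 4.03 and 4.88 and exceeded background in none. Neither gene's highest heart was heart 7 or heart 9, where Csf1r was high.

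C1qa, C1qb and C1qc encode the 3 chains of C1q, the recognition part of the first complement component, and lie next to each other in the order C1qb, C1qc, C1qa on mouse chromosome 4. Macrophages are a main source of C1q, which binds dying cells and immune complexes. C1qb, by probe set 1437726_x_at, had 8.01, 9.00, 7.80, 8.77 and 8.60 in hearts 6 to 10 (mean 8.43 ± 0.51, SD, n = 5). Its hearts stood in the same order as those of Csf1r, and the extremes differed by 1.19 log2 units, or 2.29-fold.

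A second C1qb probe set, 1434366_x_at, had 7.45, 8.25, 7.42, 8.13 and 7.79 in hearts 6 to 10, again in this order. The third, 1417063_at, had 5.72, 5.89, 5.89, 6.45 and 5.77, with heart 9 alone standing high. Probe sets ending in _x_at can hold probes that match other transcripts, and for C1qb these 2 were the bright ones. All 3 C1qb probe sets exceeded background in every heart.

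The neighbouring C1q genes were not detected in all hearts. C1qc, by 1449401_at, had 5.21, 5.24, 4.87, 5.50 and 5.43 in hearts 6 to 10 and exceeded background in hearts 6, 9 and 10. C1qa, by 1417381_at, had 4.12, 4.94, 4.57, 4.40 and 4.74, and its distance from background was -0.997 to -0.495. A gene that is not detected may still be expressed, since 1 probe set was read for each of these chains.

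The start regions of C1qb and C1qc are shown because the 2 neighbouring genes encode chains of 1 protein, and that of Fcer1g because its hearts ranked much like those of C1qb. RefSeq promoter sequences (GRCm38.p6) were matched by symbol for 7 of the 10 genes, and the table did not give Csf1r, C1qa or Tyrobp. Each line gives the 250 bases before the start given in that table on the gene's own strand, all 3 on the minus strand, at chr4:136886201-136886450 for C1qb, chr4:136892915-136893164 for C1qc and chr1:171234350-171234599 for Fcer1g. Capitals mark GAGGAA, on either strand, a core of the sites bound by the macrophage factor PU.1, the product of Spi1.
C1qb: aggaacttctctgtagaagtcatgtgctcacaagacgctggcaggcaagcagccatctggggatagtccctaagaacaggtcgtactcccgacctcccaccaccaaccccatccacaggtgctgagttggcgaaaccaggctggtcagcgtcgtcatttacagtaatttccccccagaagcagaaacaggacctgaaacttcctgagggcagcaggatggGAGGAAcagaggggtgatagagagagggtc
C1qc: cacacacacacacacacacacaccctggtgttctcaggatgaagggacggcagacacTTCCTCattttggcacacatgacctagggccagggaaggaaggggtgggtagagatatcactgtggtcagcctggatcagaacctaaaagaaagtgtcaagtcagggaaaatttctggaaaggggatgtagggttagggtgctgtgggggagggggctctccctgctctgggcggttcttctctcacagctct
Fcer1g: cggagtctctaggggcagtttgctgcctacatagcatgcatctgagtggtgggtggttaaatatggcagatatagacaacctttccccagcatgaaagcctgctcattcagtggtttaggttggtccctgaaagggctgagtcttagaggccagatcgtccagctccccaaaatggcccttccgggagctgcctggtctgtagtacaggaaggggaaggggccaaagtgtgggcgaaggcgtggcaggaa

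GAGGAA began 30 bases before the start of C1qb, and its reverse complement lay at 193 bases before the start of C1qc. The Fcer1g window held none. Of the 7 genes with a sequence, 5 held it on either strand (C1qb, C1qc, Cd68, Mrc1 and Pf4), as did 23.3% of 32851 promoter windows of the same length. The longer form GAGGAAGT, which overlaps the shorter, was found for C1qc and Pf4 and in 2.44% of all windows. Also searched were TGANTCA, held by 1 of the 7 genes (Cd68) and 6.75% of windows, and TATAAA, held by 0 of 7 and 12.4%. The members were counted by gene symbol and the shares over single windows. These matches describe letters only, and nothing on binding was measured.

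Tyrobp and Fcer1g encode short transmembrane adaptors, DAP12 and the Fc receptor gamma chain, which carry the ITAM for receptors that lack one. Tyrobp had 5.78, 6.71, 6.09, 6.77 and 5.89 in hearts 6 to 10 (mean 6.25 ± 0.46, SD, n = 5). Fcer1g had 5.91, 6.64, 6.35, 6.61 and 6.37 in the same hearts (6.38 ± 0.29). Both adaptors were detected, both were high in hearts 7 and 9 and lowest in heart 6, and their extremes differed by 1.98-fold and 1.66-fold. Heart 10 was near the low end for Tyrobp and close to the mean for Fcer1g.

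Receptors that work through these adaptors were mostly below background. Of 9 measured, 1 was detected, against 51.8% of all genes. This was Fcgr3, a low-affinity receptor for immunoglobulin G that needs the gamma chain. It had 5.90, 6.77, 6.39, 6.93 and 6.62 in hearts 6 to 10, again with hearts 7 and 9 highest and heart 6 lowest. Trem2, a lipid receptor of macrophages that signals through DAP12, exceeded background in no heart (4.11 to 4.96). Trem1 (4.04 to 4.22) and Clec5a (4.10 to 4.85) also stayed below it. Pilrb1 exceeded background in 3 hearts.

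Of 10 measured genes of ITAM signalling, 3 were detected, against 51.8% of all genes. Syk, the kinase recruited to phosphorylated ITAMs, had 5.75, 6.36, 5.68, 6.12 and 5.95 in hearts 6 to 10, highest in hearts 7 and 9. The lipid phosphatase gene Inpp5d lay between 5.70 and 5.92, and the general adaptor Grb2, which most cells express, between 7.82 and 8.69. Plcg2, a phospholipase downstream of Syk, exceeded background in 4 hearts and Btk in 1.

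Cd68 encodes a glycoprotein of late endosomes and lysosomes. It had 5.40, 5.45, 5.42, 5.36 and 5.33 in hearts 6 to 10 (mean 5.39 ± 0.05, SD, n = 5), and the highest and lowest hearts differed by 1.09-fold. Its distance above background was 0.28 in heart 6 and 0.011, 0.00067, 0.032 and 0.065 in hearts 7 to 10, so it counts as detected by margins smaller than its own SD in 3 of the hearts. Under quantile normalization, or with probe sets of type _x_at and _s_at left out, it exceeded background in 4 hearts, and with background at the 99th percentile in none.

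Mrc1, the mannose receptor, is an endocytic receptor of resident macrophages. Its levels were 6.62, 5.96, 5.98, 6.23 and 6.60 in hearts 6 to 10 (mean 6.28 ± 0.32, SD, n = 5). It was detected, but its order of hearts was not that of Csf1r: heart 6 was highest and heart 7 lowest, with a 1.57-fold range. With background at the 99th percentile it exceeded background in 4 hearts.

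Of 9 genes of sinusoidal and lymphatic endothelium, the other usual source of Mrc1, 3 were detected, against 51.8% of all genes. Of 4 genes fixed as markers of these cells 1 was detected (Pdpn), and Prox1 exceeded background in heart 6 alone. Whether these genes mark only such cells in whole heart was not tested. Stab1, which macrophages share, had 6.93, 7.92, 7.13, 7.67 and 7.43 in hearts 6 to 10, and Pdpn had 9.71, 10.03, 8.43, 9.78 and 9.34. Flt4, a growth factor receptor of lymphatic endothelium, had 6.01, 5.91, 6.26, 5.99 and 6.29. Lyve1 exceeded background in heart 6 (5.38 there, 4.91 to 5.41 over all hearts) and Stab2 in heart 10. The detected genes did not share an order: Flt4, like Mrc1, was lowest in heart 7, where Pdpn and Stab1 were highest. The summed intensity of the list, which Pdpn leads, ran from 590.2 in heart 8 to 1389 in heart 7. The part of these cells in the Mrc1 signal was not tested.

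Cx3cr1 encodes the receptor of the chemokine fractalkine and marks yolk sac-derived macrophages. Probe set 1450020_at had 4.76, 4.99, 5.13, 5.16 and 4.77 in hearts 6 to 10, and 1450019_at had 4.47, 4.78, 4.09, 4.45 and 4.31. Both lay below background in every heart, the former at a distance of -0.49 to -0.17. With the highest Bacillus control of each array as background, Cx3cr1 exceeded it in 3 hearts and C1qa in 1. Its ligand gene Cx3cl1 lay between 4.09 and 5.31 and exceeded background in none.

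Pf4 encodes a chemokine that megakaryocytes store for platelets and that embryonic macrophages also express. Its levels were 6.52, 6.61, 6.98, 6.65 and 6.99 in hearts 6 to 10 (mean 6.75 ± 0.22, SD, n = 5), at least 1.17 above background in each. Hearts 8 and 10 were highest and heart 6 lowest, with a 1.39-fold range.

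Megakaryocyte and platelet genes were partly above background. Of 11 measured, 3 were detected, against 51.8% of all genes. Of 4 defining markers none was detected: Gp9 exceeded background in 3 hearts, Ppbp in 2, Itga2b in 1 and Gp5 in none. Itga2b, the platelet integrin, had 4.20, 5.87, 5.32, 4.19 and 4.94 in hearts 6 to 10, and Clec1b, a platelet receptor that some macrophages carry, had 7.18, 7.86, 7.44, 6.84 and 6.97. Vwf, which endothelium also expresses, had 6.47, 6.74, 6.87, 6.92 and 6.86, and the transcription factor gene Nfe2, shared with red cells, had 6.18, 7.06, 6.16, 5.64 and 5.66. These genes did not share an order either: Vwf and Gp9 were lowest in heart 6, as Pf4 was, whereas Clec1b and Nfe2 were highest in heart 7. The summed intensity of the list ran from 331.4 in heart 10 to 612.2 in heart 7. The part of platelets in the Pf4 signal was not tested.

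**Figure D2:**
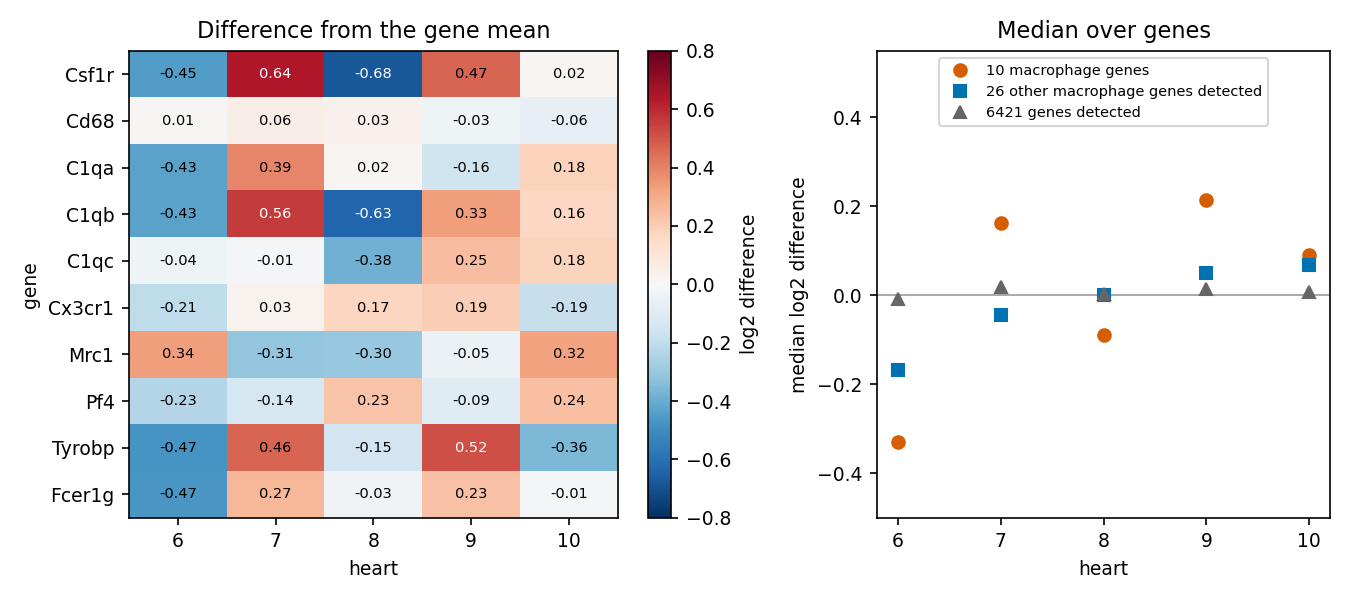
Left, the log2 difference of each of the 10 genes from its own mean over the hearts, by heart. Right, the median of these differences over the 10 genes, over 26 other macrophage genes detected and over 6421 genes detected. Heart 6 lies lowest for the 10 genes at -0.33 and for the 26 at -0.17. The 6421 genes lie near 0 in every heart, as a median over many genes on arrays scaled alike tends to.

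The 10 genes did not share 1 pattern across hearts. The median difference from the gene mean was -0.33, 0.16, -0.09, 0.21 and 0.09 in hearts 6 to 10, and over the 6421 detected genes it lay between -0.0072 and 0.018. A median over so many genes on arrays scaled alike tends to 0, and smaller lists moved more. In heart 6 it was -0.23 for the monocyte and neutrophil list, of which no gene was detected. There it was -0.19 for heart muscle and 0.13 for sinusoidal and lymphatic endothelium. Heart 6 was the lowest heart for 5 of the 10 genes and heart 7 the highest for 5. Of the 7 detected members, heart 6 was lowest for 3 and heart 7 highest for 4. Among all detected genes heart 6 was lowest for 23.2% and heart 7 highest for 30.6%, so heart 7 was often an extreme for genes in general. With 5 hearts no correlation across samples was computed.

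Whether a gene varied more than others of its level was asked with limma, as its variance over hearts against the usual variance at that level, adjusted over all genes by Benjamini-Hochberg. None of the 10 genes passed, and 0.0403% of all genes did (5 genes). Csf1r had an SD of 0.57 where 0.26 was usual (unadjusted p = 0.016, adjusted p = 0.87 by limma), and C1qb 0.51 where 0.26 was usual (unadjusted p = 0.030, adjusted p = 0.96 by limma). These SDs depend on the probe set: Csf1r had 0.35 with its probe sets averaged, and C1qb 0.29 without probe sets of type _x_at and _s_at. Those 2 were the only ones of the 10 with an unadjusted p under 0.05, against 4.45% of all genes. Tyrobp followed, with an SD of 0.46 against 0.28 (adjusted p = 0.96 by limma). For the other 7 genes the SD was between 0.17 and 1.13 times the usual one. Differences between hearts in these genes were thus not told apart from the usual spread at 5 arrays.

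**Figure D3:**
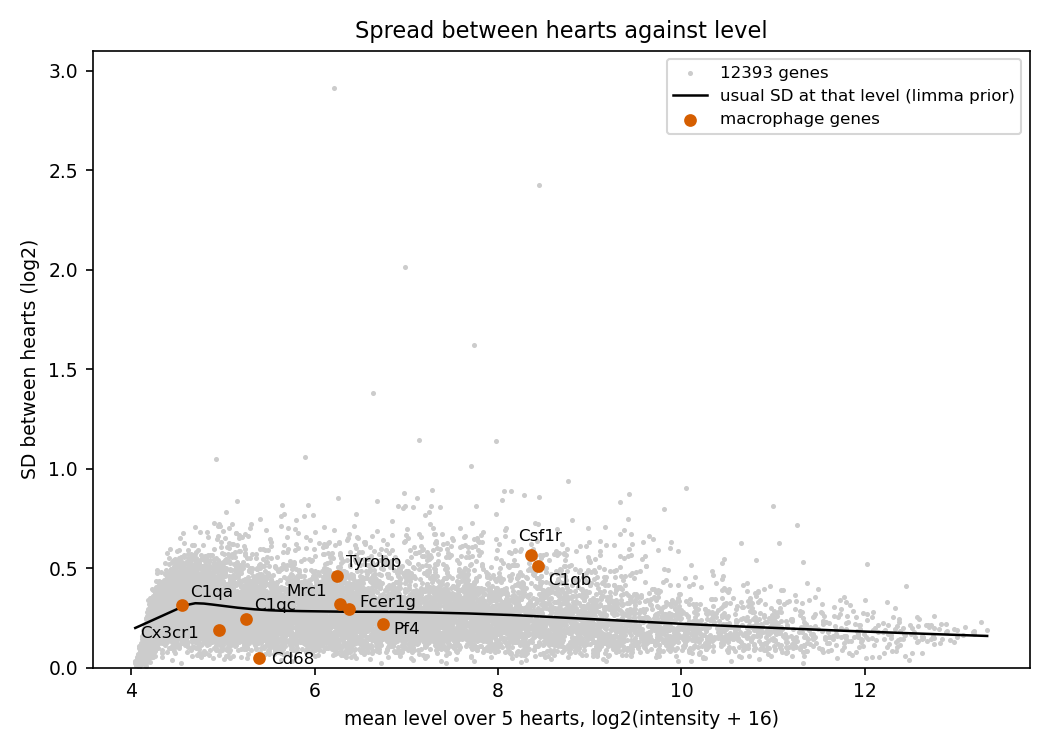
SD between the 5 hearts against mean level, log2(intensity + 16), for 12393 genes in grey, with the usual SD at each level as a line and the 10 macrophage genes in orange. Csf1r (0.57), C1qb (0.51) and Tyrobp (0.46) lie above the line, Cd68 (0.05) lies far below it, and other genes of like level spread further than Csf1r.

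Control ratios of RNA quality differed between hearts, and those of Gapdh and actin did not share an order. The ratio of 3' to 5' signal of the Gapdh control, which rises as RNA is broken or incompletely copied, was 5.69 in heart 7 and 3.55 in heart 9, the hearts highest in Csf1r, C1qb, Tyrobp and Fcer1g, and 2.79, 2.50 and 2.70 in hearts 6, 8 and 10. The actin ratio had another order, with 3.48, 4.27, 4.48, 3.20 and 3.67 in hearts 6 to 10. The part of RNA quality in the levels was not tested.

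Summed signals of red cell and heart muscle genes also differed between hearts, although no gene of either list passed limma's variance test. The summed intensity of 9 red cell genes was 27919 in heart 7 and 26580 in heart 8, against 18532 to 19215 in the others. The haem synthesis gene Alas2 reached 11.34 in heart 7 against 9.64 in heart 9. For 14 heart muscle genes the sum was lowest in heart 6 at 48968 and highest in heart 7 at 61227. In heart 6, 5 of the 10 macrophage genes were lowest, 3 of them detected. The part of these cells in the macrophage signal was not tested.

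**Figure D4:**
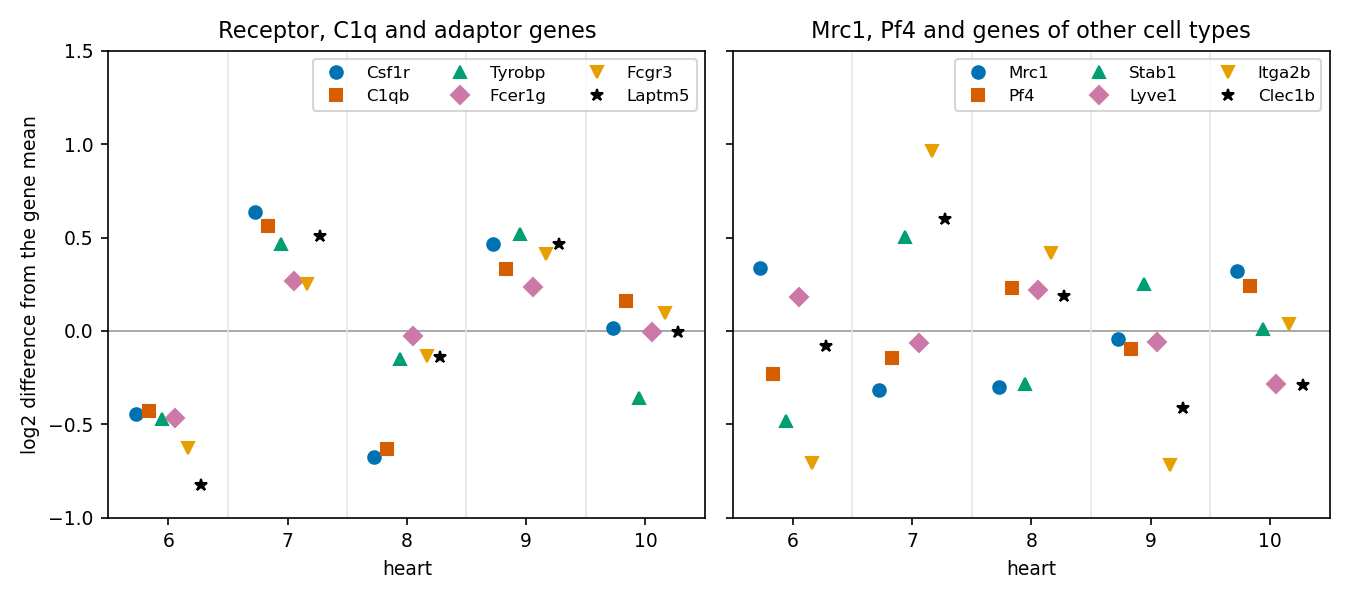
Log2 difference from each gene's mean in hearts 6 to 10, with points of different genes set side by side within a heart. Left, Csf1r, C1qb, Tyrobp, Fcer1g, Fcgr3 and Laptm5 lie above 0 in hearts 7 and 9 and below 0 in heart 6. Laptm5 was chosen after its values were seen. Of the 26 other macrophage genes detected, heart 7 was highest for 7 and lowest for 7. Right, Mrc1 and Pf4 lie below 0 in hearts 7 and 9, while Stab1 lies above 0 there. Itga2b and Clec1b have their highest point in heart 7.

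Further genes, called other macrophage genes here, were read in the same way. Their groups also hold ligands, partners and genes that other cells express, such as Grb2, C1qbp, Cd93 and Serping1. Of 97 listed in 7 groups, 87 were measured, 26 were detected (29.9%), 21 exceeded background in some hearts and 40 in none. Over all genes 51.8% were detected and 32.8% exceeded background in none, so the share of detected genes was below that of all genes here. For the 10 it was above, a small difference in so few genes. Their count ran from 5 to 8 over the processing alternatives, and Cd68 was detected at the margin. In the cytoplasmic and lysosomal group 11 of 20 were detected. The surface group had 6 of 23, ligands and partners 3 of 10, ITAM signalling 3 of 10, paired receptors 1 of 9, transcription factors 1 of 9 and MHC class II 1 of 6. None of the 87 passed limma's variance test, and 1 had an unadjusted p under 0.05.

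In the cytoplasmic group, the lysosomal protease gene Ctss had 6.79, 7.47, 6.66, 7.33 and 7.47 in hearts 6 to 10. Laptm5, a lysosomal membrane protein of blood cells, named after its values were seen, had 5.61, 6.95, 6.30, 6.91 and 6.43. Both were lower in hearts 6 and 8 than in hearts 7, 9 and 10. The lysozyme gene Lyz2 had 6.98, 7.03, 7.58, 7.54 and 7.91 and its near-identical neighbour Lyz1 8.58 to 8.86, and hybridisation may not separate them. The actin-binding leukocyte genes Coro1a (7.39 to 7.96) and Lcp1 (8.72 to 8.94) were also detected.

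On the surface, Adgre1, which encodes a surface receptor long used as a macrophage antigen, had 5.16, 5.18, 4.83, 5.37 and 5.20 and exceeded background in hearts 6 and 9. The integrin genes Itgam (4.06 to 4.61) and Itgax (4.10 to 5.17) exceeded background in no heart. Sirpa, an inhibitory receptor also known outside macrophages, lay between 6.65 and 7.55. Mertk, a detected macrophage marker, lay between 6.22 and 6.58, highest in heart 8 and lowest in heart 7, unlike Csf1r. Among C1q partners, C1qbp (7.94 to 8.78), Cd93 (9.98 to 10.70) and Serping1 (6.85 to 7.37), the gene of the C1 inhibitor, were detected, each also known outside macrophages. Cd93 was highest in hearts 6 and 10 and lowest in heart 7, as Mrc1 was.

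Of the transcription factors, Irf5 was detected (8.47 to 8.89). Spi1, the master regulator of myeloid cells, exceeded background in no heart (4.16 to 4.85), Irf8 in 1, and Cebpa and Cebpb in 3 each. MHC class II genes, low in fetal macrophages in general, were below background for H2-Aa (4.09 to 5.11), H2-Eb1 (4.08 to 4.53) and Ciita (4.10 to 4.93), whereas H2-Ab1 was detected (5.25 to 6.04).

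**Figure D5:**
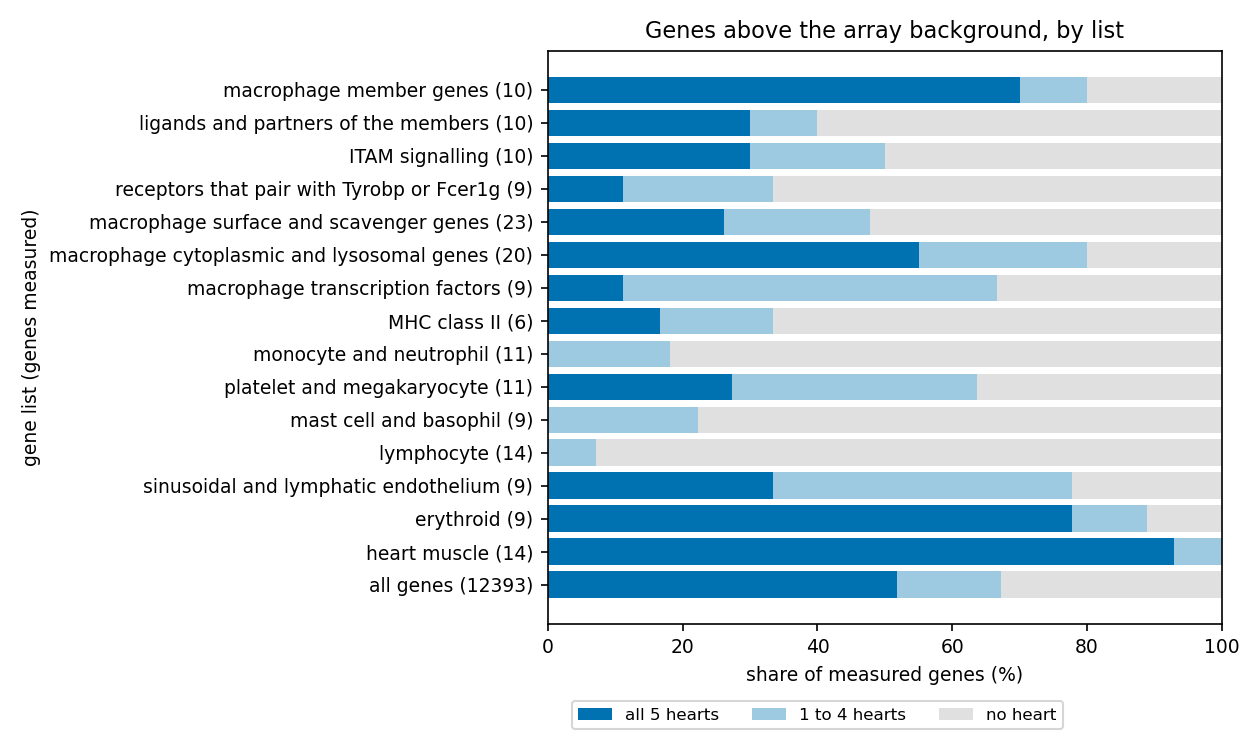
Share of measured genes of each list, in percent, that exceeded the array background in all 5 hearts, in 1 to 4 hearts or in none, with the number measured in brackets. The 10 macrophage genes reach 70.0% in all hearts, the 87 other macrophage genes, drawn as 7 groups, together 29.9% and all genes 51.8%, and no gene of the monocyte and neutrophil, mast cell or lymphocyte lists does.

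Other blood cells that share some of these genes gave little signal. No gene was detected among 11 of monocytes and neutrophils, 9 of mast cells and basophils or 14 of lymphocytes, whereas 51.8% of all genes were. Ccr2, the monocyte chemokine receptor, lay between 4.60 and 5.24, the mast cell genes Cpa3 and Ms4a2 between 4.26 and 4.90 and between 4.08 and 4.64, and Cd3e between 4.07 and 4.80, all below background in every heart. The neutrophil gene S100a9 exceeded background in hearts 7 and 10. Summed intensities were 63.2 to 139.8 for the monocyte and neutrophil list, 45.2 to 109.6 for mast cells and 54.0 to 122.4 for lymphocytes.

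Genes whose differences over the 5 hearts came closest to the median of the 10 were not from the macrophage lists. Among 5957 detected genes whose SD was at least 0.5 times that of the median profile (0.22), the smallest root mean square distances were 0.034 for Fam131a, 0.036 for Eng, 0.037 for Surf1, 0.042 for Col4a2 and 0.047 for Fbl, against a median of 0.29. With so few hearts and so many genes, close matches arise easily.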

How the data were processed

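RNA of single dissected hearts (10 ng) was amplified and labelled with biotin, 1 array per heart, per the labels' protocols. The authors deposited 1 linear intensity per probe set and array, and the submitters' processing notes name GCOS without a version or settings. Judged by the values, the 2% trimmed mean had been set to 150.1 on every array, which removes differences in total signal between hearts. Amplification from little RNA can add noise to weak transcripts.

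Of 22690 probe sets, 20393 had 1 gene symbol, 691 several and 1606 none in the annotation table; 20364 of the first matched GRCm38.p6 by Entrez number. Without controls, 20380 probe sets of 12393 genes remained. Values were scaled to a common trimmed mean and analysed as log2(intensity + 16), which understates differences of weak genes. Arrays had median intensities of 27.1 to 30.4, between 7046 and 7804 genes above background, and pairwise r across genes of 0.965 to 0.983; no 2 arrays were identical. Of 77 off-tissue genes listed, 69 were measured and 1 (Abca4) exceeded the resulting background in all hearts.

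The variance test used R 4.3.3 and limma 3.58.1: each variance (4 degrees of freedom) over a robust, level-dependent prior variance (12.06 degrees of freedom), F distribution, upper tail, Benjamini-Hochberg over genes, threshold 0.05. It was tested on simulated data with a single heart shifted. These shifts were larger than the range of any member, so they do not show whether the test finds smaller differences. The members, lists and tests were chosen with earlier results of these data known, so no count here is independent support. Genes named were all 10 members with each probe set, and of each other list the first 3 measured genes plus up to 2 more with most hearts above background. Genes fixed as cell type markers (Mertk, Gp9, Ppbp, Prox1 and Nkx2-5) and the 5 genes of closest profile were also named. Laptm5, Serping1 and Nfe2 were named after their values were seen. Alternatives were other normalizations, offsets, probe set rules, backgrounds, priors and filters, and each heart left out. A background without Abca4 and Tg, and probe sets counted singly, were added after the data were examined. The number of arrays limits the precision.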

Additional observations from a re-analysis of the deposited data

Results flagged for a closer look

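The distance of the extreme heart to its nearest neighbour, divided by the full range (Dixon's ratio), was computed for 85 values. These were the members, the other genes named by the list rule, the further probe sets of members and the members' median difference. Genes named on other grounds, such as Mertk, Nfe2 and Laptm5, were not included. The ratio passed 0.71, the 95% critical value for 5 samples, for 5 of the 85 values (5.88%), where chance gives about 1 in 20. Among the member probe sets 1 passed, C1qb 1417063_at, at 6.45 in heart 9 where the other hearts ranged from 5.72 to 5.89. The bright C1qb probe sets did not show heart 9 alone. The remaining 4 were not members. The erythrocyte gene Slc4a1 reached 11.003 in heart 7, while the other hearts ranged from 9.48 to 9.68. For Cd4, heart 7 gave 5.48 while the remaining hearts ranged from 4.06 to 4.31. For Clec5a, below background throughout, heart 7 gave 4.85 while the remaining ones ranged from 4.10 to 4.31. Cd74, the invariant chain of MHC class II, was lowest in heart 8 at 4.84, with 5.12 to 5.20 elsewhere.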

How the results depend on the processing

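Of the 10 genes, between 5 and 8 were detected under the 14 alternatives that count genes, the lowest with background at the 99th percentile and the highest when 3 hearts sufficed. The count stayed at 7 with each heart left out in turn. Of the other macrophage genes, 20 to 36 were detected. None of the 10 passed the variance test under 15 alternatives, with the lowest adjusted p at 0.72 by limma (offset 1). Cd68, Mrc1 and C1qc changed their call under the settings named above or in the count with 3 hearts, and the detection calls of the other 7 genes did not change, although against Bacillus controls Cx3cr1 exceeded background in 3 hearts, C1qa in 1 and C1qc in 4. SDs moved by over 1.5 times for Csf1r with probe sets averaged (0.35) or by its dimmest probe set (0.16), for C1qb without _x_at and _s_at probe sets (0.29), for Fcer1g without heart 6 (0.16), for C1qc without heart 8 (0.14), and for 4 genes at offset 1 and 7 at offset 64. The median difference of the 10 genes was below 0 in heart 6 and above 0 in hearts 7 and 9 in every alternative run, with ranges of -0.43 to -0.15, 0.04 to 0.27 and 0.094 to 0.32. In heart 8 it changed sign without heart 7 (0.0020), and in heart 10 with probe sets averaged (-0.0073) and without heart 6 (-0.0026) or heart 8 (-0.0045). No paired analysis was possible because there is 1 group of samples. Signal near background limits what can be said of Cd68, C1qa, C1qc and Cx3cr1.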
